A study of Homo sapiens with 2 samples.

Results

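TXNIP, its 4 arrestin-domain relatives ARRDC1, ARRDC2, ARRDC3 and ARRDC4, and the glucose-responsive transcription factors MLXIP (MondoA), MLXIPL (ChREBP) and their partner MLX were described in NCI-H460, an established line from a human large cell carcinoma of the lung. These 8 genes of the 58735 in the count table were chosen by symbol, with the ratio between the libraries already known, so their values are a description and no test of them was made. The table holds 2 RNA-seq libraries with 1 library per group, both labelled NCI-H460 from a pleural effusion, grown in RPMI-1640 with serum and given the same batch label (the series' design text writes NCI-H469). The siControl cells are labelled wild type and as transfected without an siRNA against CYP4F11, and no control sequence is named. The siCYP4F11 cells, labelled as a knockdown, received with a lipid reagent an siRNA against CYP4F11, a fatty acid hydroxylase of the cytochrome P450 family, and the protocols give 24 h of transfection. Neither group has a replicate, so every interval below covers counting error only and every difference is between these 2 libraries, not between the conditions in general. In bulk RNA, fewer cells that express a gene and less RNA per cell cannot be told apart.

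Alpha-arrestins are adaptor proteins that bring ubiquitin ligases of the NEDD4 family to membrane proteins, which are then taken up from the cell surface. TXNIP, the best known of them, binds reduced thioredoxin and limits glucose uptake by promoting the internalisation of the glucose transporter GLUT1. MondoA and ChREBP bind DNA as heterodimers with MLX and respond to phosphorylated glucose. TXNIP and ARRDC4 are among their best known targets, so TXNIP is often read as a reporter of glucose entry into a cell.

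The DNA through which these factors act on TXNIP lies just before its start, and it is shown because it sets TXNIP apart in sequence from the other 7 genes. RefSeq (GRCh38.p14) held start sites for all 8 genes, 11 in total, and the 250 bases before each were searched on both strands for CACGNG (an E-box-like hexamer), for 2 such hexamers 5 bases apart (the layout of a carbohydrate response element), for the canonical E-box CACGTG, which is itself a CACGNG, and for CCAAT. In the printed promoters, capitals mark CACGNG and CCAAT in either orientation, and bases that GENCODE release 29 places in the first exon were left off. The promoters lie at chr1:145996601-145996829 on the minus strand (TXNIP) and chr15:97960453-97960697 on the plus strand (ARRDC4), each written 5′ to 3′ along its gene.
TXNIP: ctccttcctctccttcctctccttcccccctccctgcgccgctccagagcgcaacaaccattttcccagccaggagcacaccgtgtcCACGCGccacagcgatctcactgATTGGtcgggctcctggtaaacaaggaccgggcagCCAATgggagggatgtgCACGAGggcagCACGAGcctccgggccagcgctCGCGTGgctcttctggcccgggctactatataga
ARRDC4: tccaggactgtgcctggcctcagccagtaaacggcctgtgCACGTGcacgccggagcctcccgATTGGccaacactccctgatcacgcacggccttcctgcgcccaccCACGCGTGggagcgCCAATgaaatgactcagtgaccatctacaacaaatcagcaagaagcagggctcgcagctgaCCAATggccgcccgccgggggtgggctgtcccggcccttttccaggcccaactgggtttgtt

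The TXNIP promoter held 4 CACGNG hexamers, and 2 of them formed the pair, at positions -88 to -72 before 1 of its 2 starts, where -1 is the base before the start (chr1:145996651-145996667). The pair was found in 23 of 35116 RefSeq promoter windows (0.0655%), and TXNIP was the only gene of the 8 with a match. PKLR, the pyruvate kinase gene in which carbohydrate response elements were studied early, also had a match (chr1:155301062-155301078, minus strand), as did GFPT1, the first enzyme of the hexosamine pathway (chr2:69387317-69387333, minus strand). These matches are set side by side to show that the hexamers and the 5 bases between them differ, whereas the spacing was fixed by the search.
TXNIP pair: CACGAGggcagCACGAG
PKLR pair: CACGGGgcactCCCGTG
GFPT1 pair: CGCGTGagcggCGCGTG

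The ARRDC4 promoter held 3 CACGNG hexamers, 2 of them overlapping, and no pair in this window. Its hexamer at -210 to -205 was the canonical CACGTG, which occurred in 6.34% of all windows. MLX also had a CACGTG, at -50 to -45, and it coincided with a CACGNG by definition. Single CACGNG hexamers were present in 26.7% of all windows and CCAAT in 32% of them. ARRDC2 had 3 hexamers before 1 of its 2 starts. The bases after that start, unlike those after the other starts searched, did not match a GENCODE transcript of the gene. ARRDC3 had 1, also before 1 of its 2 starts, while ARRDC1, MLXIP and MLXIPL had 0 in these windows. These matches describe letters and not binding.

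**Figure D1:**
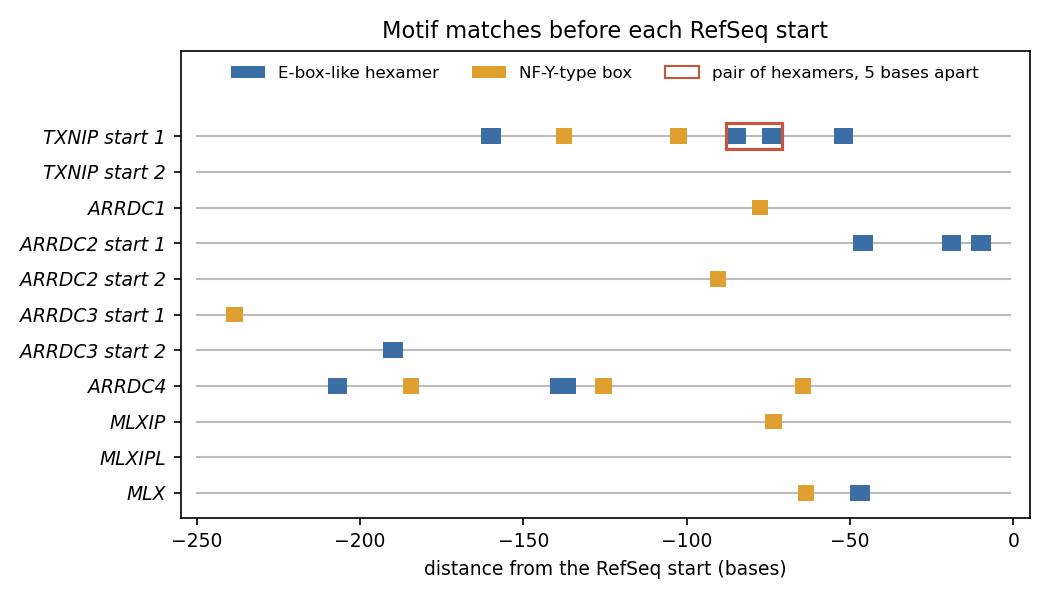
Positions of motif matches in the 250 bases before each of the 11 RefSeq starts of the 8 genes, with distance from the start in bases on the x axis. Blue boxes are CACGNG hexamers, yellow boxes CCAAT in either orientation, and the red frame, present in the TXNIP row alone, marks 2 hexamers 5 bases apart.

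The libraries held 16207785 (siControl) and 13002179 (siCYP4F11) counts. CYP4F11 had 3180 counts in siControl and 972 in siCYP4F11, and its level was 37.8% of the control. Keratins, markers of epithelial cells, were abundant (KRT19 at 1746 CPM in siControl and 1427 CPM in siCYP4F11, where CPM is the count scaled to a common library size), whereas the epithelial adhesion genes EPCAM and CDH1 had at most 8 counts in either library. Of 6 leukocyte markers 1 reached a mean of 1 CPM (CD14, with 20 and 33 counts), and their summed level was 1.36 CPM in siControl and 2.53 CPM in siCYP4F11, with PTPRC, CD3E and ITGAM at 0 in both. Of 7 fibroblast and endothelial markers 3 did (LUM with 209 and 255 counts, DCN and COL1A1), and all 7 summed to 16.9 and 24.8 CPM, with PECAM1, VWF and CDH5 at 0 in both, and of 6 airway and alveolar markers 1 did (AGER), with sums of 1.49 and 1.99 CPM and SCGB1A1 and FOXJ1 at 0 in both. The part of these markers in the results below was not tested.

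TXNIP and MLXIP were lower in the siCYP4F11 library, ARRDC3 was higher and ARRDC2 slightly higher, and the counting intervals of ARRDC1, ARRDC4, MLX and MLXIPL included no difference. All 8 genes passed the filter of a mean of at least 1 CPM, which 13942 genes passed in all. A gene was called when it differed at least 2-fold with a 95% counting interval that excluded no difference. None of the 8 was called, against 1.26% of all measured genes called lower and 0.703% called higher. At 1.5-fold the number was also 0 of 8, against 3.44% lower and 2.04% higher over all measured genes. With any size allowed, the interval excluded 0 for 2 genes on the lower side and 2 on the higher side, against 19.2% and 18.6% of all measured genes. The ratios of the 8 genes contributed to their choice, so nothing is read from these shares.

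TXNIP had 8198 counts in siControl and 4734 in siCYP4F11. Scaled to library size this was 508 CPM (95% counting interval 497 to 519) against 363 CPM (352 to 373), and the intervals did not overlap. Its log2 ratio, siCYP4F11 over siControl, was -0.49 (-0.54 to -0.43), so the level was 71.4% of the control. TXNIP was the most abundant of the 8 genes. Of the 2062 genes with a mean of at least 100 CPM, 17 had a ratio as low or lower (0.824%), and the SD of the ratios there was 0.18. TXNIP itself and the siRNA target CYP4F11 are among the 17, and the like counts below also include the gene itself. This share and those of the other genes below place ratios that were known when the genes were chosen, so they are no support for a difference. TXNIP (ENSG00000265972) spans 145992435 to 145996600 on chromosome 1, minus strand, in GRCh38. None of its exon bases overlapped another gene, and none of its 50-base words occurred in the transcripts of another gene, so its reads are not shared with a copy by this measure.

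ARRDC4, the other well-known MondoA target of the family, did not show a difference of that size. It had 656 counts in siControl and 481 in siCYP4F11, or 40.6 CPM (37.6 to 43.9) and 36.8 CPM (33.6 to 40.3), and these intervals overlapped. The log2 ratio was -0.14 (-0.31 to 0.03). The difference between the log2 ratios of TXNIP and ARRDC4 does not depend on library scaling, and it was -0.34 (counting interval -0.52 to -0.16). The gene (ENSG00000140450, chromosome 15, 97960698 to 97973838, plus strand) likewise overlapped no other exon and shared no 50-base word.

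ARRDC3, an adaptor for the beta-2 adrenergic receptor and for integrin beta-4, differed in the opposite direction to TXNIP. It had 783 counts in siControl and 808 in siCYP4F11, although the second library was the smaller. Its level was 48.5 CPM (45.2 to 52.0) in siControl and 61.9 CPM (57.7 to 66.3) in siCYP4F11, without overlap. The log2 ratio was 0.35 (0.21 to 0.50), so the level was 128% of the control. Of the 4243 genes between 30 and 100 CPM, 188 had a ratio as high or higher (4.43%). ARRDC3 (ENSG00000113369) spans 91368724 to 91383359 on chromosome 5, minus strand, and 2.94% of its exon bases overlap the exons of ARRDC3-AS1 on the other strand, which had 14 and 10 counts.

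ARRDC2 was the second most abundant alpha-arrestin, with 2605 counts in siControl and 2303 in siCYP4F11. This was 161 CPM (155 to 168) against 176 CPM (169 to 184), intervals that did not overlap. The log2 ratio was 0.13 (0.05 to 0.21), a difference that was common at this level, since 22.3% of the 2062 genes of at least 100 CPM had a ratio as high or higher. ARRDC2 (ENSG00000105643) spans 18001132 to 18014102 on the plus strand of chromosome 19, where 9.53% of its exon bases overlap AC020904.3, a gene with 0 counts in both libraries.

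ARRDC1, which recruits the vesicle-sorting protein TSG101 and drives budding of small vesicles from the plasma membrane, had 332 counts in siControl and 279 in siCYP4F11. This was 20.6 CPM (18.4 to 22.9) and 21.4 CPM (18.9 to 24.0), and the intervals overlapped. The log2 ratio was 0.06 (-0.18 to 0.29). ARRDC1 (ENSG00000197070, chromosome 9, 137605654 to 137615360, plus strand) shares 0.759% of its exon bases with ARRDC1-AS1 on the other strand, which had more counts than ARRDC1 itself, 477 and 410, and 4.79% with AL590627.2 on its own strand, which had 0 in both libraries. ARRDC5, the remaining alpha-arrestin gene, had 0 counts in both libraries, where 3 counts would correspond to 0.186 CPM in siControl and 0.230 CPM in siCYP4F11.

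MLXIP encodes MondoA, which shuttles between the outer mitochondrial membrane and the nucleus and is the glucose sensor of most tissues outside liver and fat. It had 1004 counts in siControl and 562 in siCYP4F11, or 62.2 CPM (58.4 to 66.2) and 43.1 CPM (39.6 to 46.8), without overlap. The log2 ratio was -0.53 (-0.68 to -0.38), and the level was 69.2% of the control. This ratio was the lowest of the 8, though TXNIP was lower after the correction for GC content given below. Of the 4243 genes between 30 and 100 CPM, 39 had a ratio as low or lower (0.919%), where the SD of the ratios was 0.21. MLXIP (ENSG00000175727) spans 122078722 to 122147347 on chromosome 12, plus strand, with no exon overlap and 0.710% of its 50-base words shared with other genes.

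MLX, the obligate partner of MondoA and ChREBP, was close to equal in the libraries. It had 946 counts in siControl and 733 in siCYP4F11, which was 58.6 CPM (54.9 to 62.5) and 56.1 CPM (52.2 to 60.4), with overlapping intervals. The log2 ratio was -0.06 (-0.20 to 0.08). Its reads may be shared with other genes, because 18.1% of its exon bases overlap PSMC3IP on the other strand (444 and 401 counts). The strand setting of the counting is not given. In either orientation, 16.9% of its 50-base words occur in other genes, a share that can include the overlap with PSMC3IP. MLX (ENSG00000108788) spans 42567068 to 42573239 on the plus strand of chromosome 17.

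MLXIPL, which encodes ChREBP, the glucose-responsive activator of lipid synthesis in liver and fat, was near the lower end of detection. It had 58 counts in siControl and 39 in siCYP4F11, or 3.59 CPM (2.73 to 4.64) and 2.99 CPM (2.12 to 4.08). The log2 ratio of -0.26 had an interval from -0.89 to 0.34, so a decrease as large as that of MLXIP, or no decrease, was not distinguishable at this depth. MLXIPL (ENSG00000009950) spans 73593194 to 73624543 on the minus strand of chromosome 7.

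**Figure D2:**
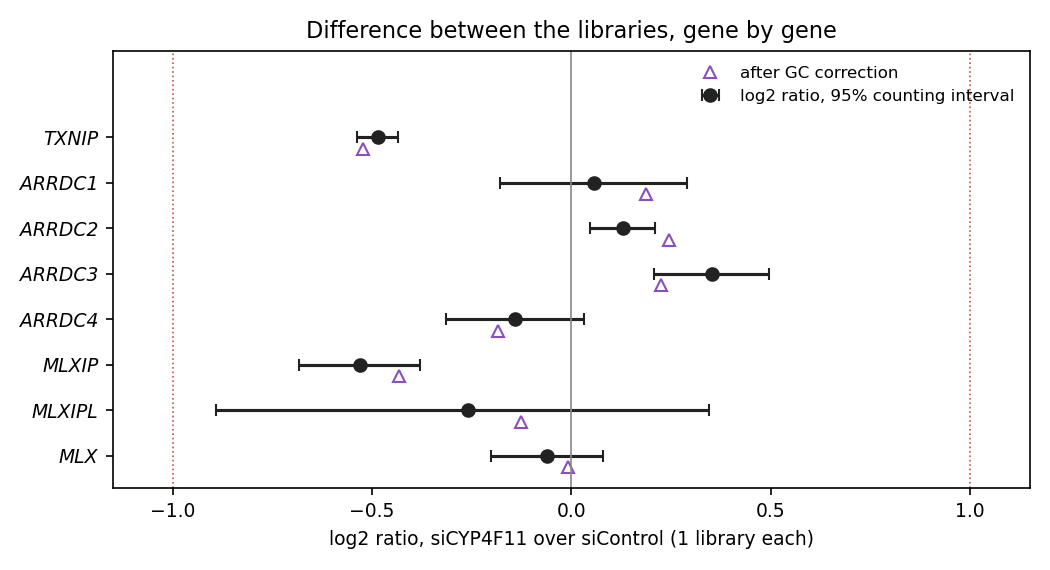
Log2 ratio of siCYP4F11 over siControl for each of the 8 genes, 1 library per group. Black points carry 95% counting intervals, triangles give the ratio after correction for GC content, and dotted lines mark 2-fold. TXNIP (-0.49) and MLXIP (-0.53) lie left of 0 and ARRDC3 (0.35) right of it.

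Set against all measured genes, the 8 genes lay inside the 2-fold lines while TXNIP and MLXIP stood near the lower edge of the genes of like abundance. The ratios of all measured genes narrowed as abundance rose, with an SD of 0.65 between 1 and 3 CPM and 0.18 from 100 CPM upward, against an overall median of -0.005.

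**Figure D3:**
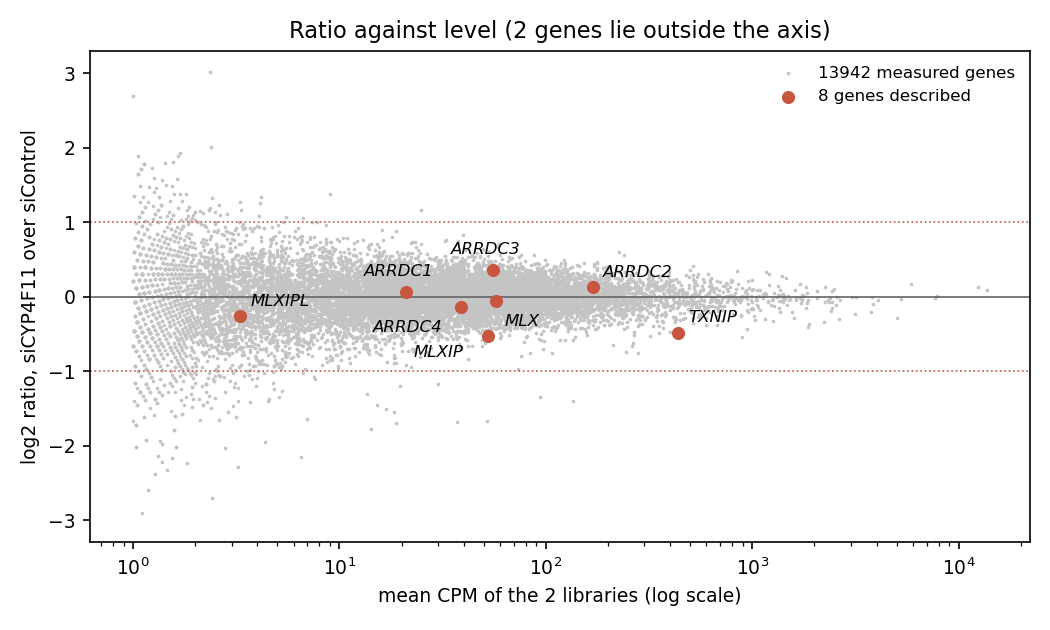
Log2 ratio of siCYP4F11 over siControl against the mean CPM of the 2 libraries (log axis) for the 13942 measured genes in grey and the 8 genes in red, with 2-fold marked by dotted lines and 2 genes outside the axis. All 8 lie between the dotted lines, and TXNIP and MLXIP lie near the lower edge of the cloud at their abundance.

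Ratios over all measured genes decreased with the GC content of the longest transcript, with a Spearman correlation of -0.32 across 13936 genes of the same 2 libraries, which are not replicates. After a correction for this relation TXNIP was at -0.52 and MLXIP at -0.43. ARRDC3, the member with the lowest transcript GC content (37.6%), was at 0.23 after the correction, and ARRDC2 was at 0.24, outside its uncorrected counting interval. ARRDC1 was at 0.19, ARRDC4 at -0.18, MLXIPL at -0.13 and MLX at -0.01. The correction reversed the order of ARRDC3 and ARRDC2, whose corrected values were close, of MLXIPL and ARRDC4, and of TXNIP and MLXIP. The lowest of the 8 was therefore MLXIP before the correction and TXNIP after it. The sign of all 8 ratios was the same with and without the correction.

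The ratios of the 8 genes were also compared in pairs, against counting error alone and as a description, since these ratios were known when the genes were chosen. Of the 28 pairs among them, 16 differed in log2 ratio with a counting interval that excluded 0. The share over pairs of all measured genes was not computed, so nothing is read from this number. TXNIP was below each of its 4 relatives, by a difference of -0.54 from ARRDC1 (-0.78 to -0.30), -0.61 from ARRDC2 (-0.71 to -0.52) and -0.84 from ARRDC3 (-0.99 to -0.68), with ARRDC4 as given above. TXNIP and MLXIP differed from each other by 0.04 (-0.11 to 0.21), an interval that includes 0. MLXIP was below its partner MLX by a difference of -0.47 (-0.68 to -0.26). Of the 7 pairs with MLXIPL, every interval included 0 at its low counts.

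Levels of different genes were compared per length, as reads per kilobase of the deposited gene model scaled as CPM (RPKM). TXNIP was first in both libraries, at 140.1 RPKM in siControl and 100.04 RPKM in siCYP4F11, which placed it in the top 1.95% and 2.84% of measured genes. ARRDC2 was next at 34.8 and 38.0 RPKM, followed by MLX at 13.8 and 13.2 RPKM. ARRDC4 (9.98 RPKM) and ARRDC3 (9.83 RPKM) had overlapping counting intervals in siControl. In siCYP4F11 ARRDC3 (12.5 RPKM) was above ARRDC4 (9.05 RPKM), without overlap, and overlapped MLX. ARRDC1 followed at 5.38 and 5.59 RPKM, MLXIP at 4.47 and 3.10 RPKM and MLXIPL at 0.746 and 0.620 RPKM.

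TXNIP made up 70.0% of the summed RPKM of the 5 expressed alpha-arrestins in siControl and 60.5% in siCYP4F11. The share of ARRDC2 was 17.4% in siControl and 23.0% in siCYP4F11, and that of ARRDC3 was 4.91% and 7.59%. Among the transcription factors MLX was the most abundant, with 72.5% and 78.0% of the summed RPKM of MLX, MLXIP and MLXIPL. MLXIP exceeded MLXIPL by 5.99 times in siControl and 4.99 times in siCYP4F11, so MondoA was the main glucose-sensing partner of MLX by RNA level in both libraries. The gene model of MLXIP is long (13905 bases), and its RPKM depends on how much of that model is transcribed.

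**Figure D4:**
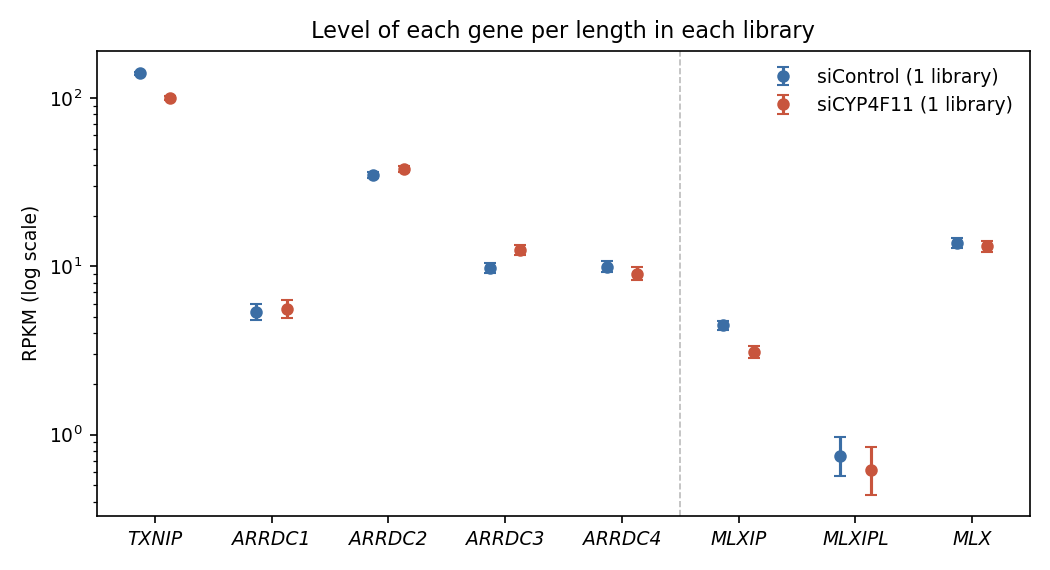
Level of each of the 8 genes in RPKM on a log axis, siControl in blue and siCYP4F11 in red, 1 library each, with 95% counting intervals. Alpha-arrestins are left of the dashed line and transcription factors right of it. TXNIP is highest in both libraries (140.1 and 100.04 RPKM) and MLXIPL lowest.

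Genes around these 8 were taken from 8 lists chosen by function with earlier results of these data known, and 0 of their measured members were called at 2-fold in either direction. Genes described as targets of MondoA or ChREBP, other than TXNIP and ARRDC4, were more often below 0 than above it. Of 20 such genes 15 were measured, and 11 were below 0 and 4 above, with 8 intervals below 0 and 0 above. Over all measured genes, 19.2% of intervals lay below 0 and 18.6% above, shares that also apply to the lists that follow and that were not taken at matched abundance. The median was -0.11, or -0.09 after the GC correction, against -0.005 and -0.001 for all measured genes. HK2, which phosphorylates glucose, had 1862 counts in siControl and 1140 in siCYP4F11 and a log2 ratio of -0.40 (-0.51 to -0.29). PFKFB3, which makes the allosteric activator of glycolysis, had 663 and 410 counts, at -0.39 (-0.57 to -0.21). KLF10, a transcriptional repressor induced by glucose, was at 0.09 (-0.01 to 0.20).

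The lipogenic genes of that list were not alike. SCD, a fatty acid desaturase, was at -0.55, FASN, the fatty acid synthase, at -0.25, and ACLY, which supplies cytosolic acetyl-CoA, at -0.14 (-0.20 to -0.08). ACACA was at -0.11 (-0.21 to -0.01), or -0.09 after the GC correction. ELOVL6, a fatty acid elongase, was at 0.05 (-0.12 to 0.21) and changed sign to -0.03 with that correction. BHLHE40, a transcriptional repressor, was at -0.14 (-0.23 to -0.05). After the GC correction FASN was at -0.11 and ACLY and BHLHE40 each at -0.09. PKLR had 0 counts in both libraries.

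Of 18 genes for glucose transport and phosphorylation, 10 were measured, with 5 intervals below 0 and 2 above. Their median was -0.15, or -0.10 after the GC correction. SLC2A13, 1 of those 2, changed sign with the GC correction, from 0.10 to -0.04. SLC2A1, which encodes GLUT1, the transporter that TXNIP takes from the cell surface, had 7479 counts in siControl and 4337 in siCYP4F11, a log2 ratio of -0.48 (-0.53 to -0.43). The transporter and its negative regulator thus differed by nearly the same amount between the libraries, in a pair chosen after the values were seen. The difference between their log2 ratios was -0.006 (-0.08 to 0.07), and the RPKM of SLC2A1 was 0.700 of that of TXNIP in siControl and 0.703 in siCYP4F11. After the GC correction the ratios were less alike, -0.40 for SLC2A1 and -0.52 for TXNIP. The transporter SLC2A3, whose near-identical relative SLC2A14 could share its reads, was at -0.26 (-0.32 to -0.20), HK1 at -0.19 (-0.29 to -0.10) and the glucose-6-phosphatase G6PC3 at -0.11 (-0.22 to -0.01). SLC2A6, a lysosomal hexose transporter, was at 0.48 (0.14 to 0.82).

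The thioredoxin system, which includes the thioredoxin that TXNIP binds and inhibits, had all 12 genes measured, with 9 above 0 and 3 below. Of their intervals 5 lay above 0, against 18.6% of all measured genes, and 0 below, against 19.2%, with a median of 0.06, or 0.13 after the GC correction. TXN, thioredoxin itself, had 17478 counts in siControl and 17429 in siCYP4F11, or 1083 and 1335 CPM, a log2 ratio of 0.30 (0.27 to 0.33). TXNIP was below TXN by a difference of -0.79 in log2 ratio (-0.85 to -0.73), a pair chosen after the values were seen, and the RPKM of TXN was 6.77 times that of TXNIP in siControl and 11.7 times in siCYP4F11. The mitochondrial peroxiredoxin PRDX3 was at 0.21, the endoplasmic reticulum peroxiredoxin PRDX4 at 0.17, PRDX6 at 0.15 and the reductase TXNRD1 at 0.11 (0.09 to 0.13).

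The NEDD4-family ligases, which alpha-arrestins recruit through PPxY motifs, and the adaptors NDFIP1 and NDFIP2 were all measured, 11 of 11. Of their intervals 5 were above 0 and 1 below, against 18.6% and 19.2% of all measured genes, and the median was 0.13, or 0.05 after the GC correction. NDFIP1, 1 of the 5, was at 0.13 and changed sign to -0.03 with the correction. WWP1 was at 0.35 (0.18 to 0.53), NEDD4 at 0.31 (0.20 to 0.42, or 0.19 after the GC correction), the adaptor NDFIP2 at 0.22 (0.05 to 0.39) and ITCH, a ligase for TXNIP, at 0.20 (0.09 to 0.31). After the GC correction NDFIP2 was at 0.05 and ITCH at 0.10. NEDD4L was at 0.08 (-0.09 to 0.24), and HECW2 was lower at -0.44 (-0.68 to -0.20).

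Other arrestin-fold genes were mixed, with 5 of 8 measured, 2 intervals above 0 and 2 below, and a median of -0.15, or -0.07 after the GC correction. The beta-arrestin ARRB2, which desensitises G protein-coupled receptors, was at -0.34 (-0.45 to -0.22). Of the retromer subunits, VPS26A was at 0.21 (0.11 to 0.32, or 0.13 after the GC correction) and VPS26B at -0.37 (-0.56 to -0.18), while the retriever subunit VPS26C was at 0.33 (0.18 to 0.48). Among cargo and sorting partners, 7 of 8 were measured, with 3 intervals above 0 and 3 below. TSG101, the partner of ARRDC1, was at 0.30 (0.17 to 0.44), the sorting adaptor HGS at -0.44 (-0.55 to -0.34), the ATPase VPS4A at -0.33 and the ARRDC3 cargo ITGB4 at -0.28 (-0.54 to -0.02), or -0.14 after the GC correction. The median of this list was 0.14, or 0.04 after the GC correction.

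The MAX network and other E-box binders, which share DNA sites and in part partners with MLX, had 13 of 15 genes measured, 6 intervals below 0 and 2 above, and a median of -0.15, or -0.07 after the GC correction. MXI1, a MAX partner that opposes MYC, was at -0.54 (-0.77 to -0.31), MYC at -0.35 (-0.40 to -0.30) and MNT, a repressor that pairs with MAX and MLX, at -0.26 (-0.50 to -0.04), or -0.14 after the GC correction. MXD3 was at 0.32 (0.13 to 0.50), and MAX was at 48.5 CPM in both libraries (interval of the ratio -0.15 to 0.15). Of 7 kinases and binding partners of TXNIP, 6 were measured, with 4 intervals below 0 and 1 above and a median of -0.10, or -0.05 after the GC correction. DDIT4, 1 of those 4, changed sign with the correction, from -0.06 to 0.04. The stress kinase MAP3K5 (ASK1), which thioredoxin holds inactive, had 173 counts in siControl and 74 in siCYP4F11, a log2 ratio of -0.91 (-1.33 to -0.52), the lowest ratio among the measured genes of the 8 lists. AKT1, which phosphorylates TXNIP, was at -0.20 and AKT2 at -0.14 (-0.26 to -0.01), or -0.07 and -0.04 after the GC correction. PRKAA1, a subunit of AMPK, which marks TXNIP for degradation, was at 0.18 (0.07 to 0.29), or 0.02 after the GC correction. The more abundant AMPK subunit PRKAA2 was at -0.03 (-0.11 to 0.05), or -0.19 after the GC correction.

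**Figure D5:**
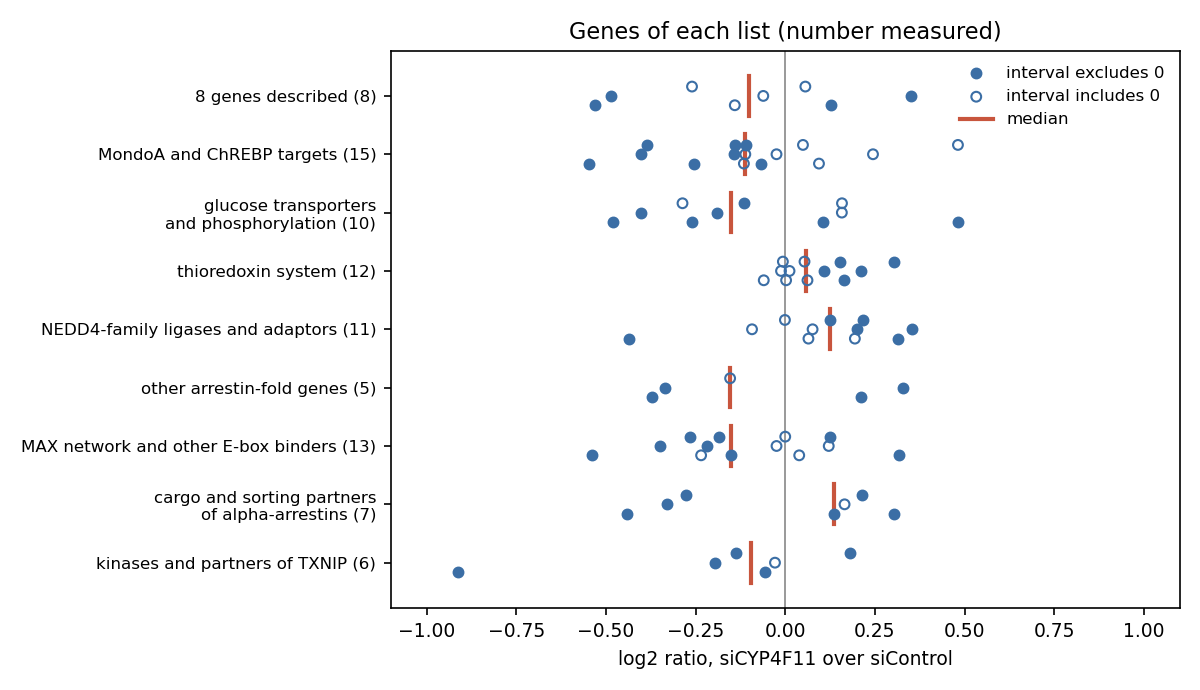
Log2 ratio of siCYP4F11 over siControl for each measured gene of the 8 genes described and of the 8 lists around them, with the number measured in parentheses. Filled points have a counting interval that excludes 0, open points include it, and red bars are medians, from -0.15 to 0.14. Points of the thioredoxin system (12 genes) lie mostly right of 0 and those of the MondoA and ChREBP targets (15 genes) mostly left.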

How the data were processed

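Poly-A RNA of NCI-H460 cells was sequenced as 2 strand-specific libraries, per the labels' protocols. The authors deposited 1 table of whole-number read counts per gene, not normalised, with gene model lengths in bases. Per the submitters' processing notes, GRCh38, edgeR 4.0.16, featureCounts 2.0.6, HISAT2 2.2.1 and fastp were used. Their roles and the strand setting are not given in the sources used here. Further sample columns numbered 0. All 58735 genes matched GENCODE release 29 in identifier, symbol and position.

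The members and lists were chosen with earlier results of these data known. Counts were scaled with TMM factors (edgeR 4.0.16, R 4.3.3). Log2 ratios used 0.5 added to each count. Intervals were exact (95%): Clopper-Pearson for ratios, Poisson for levels and conditional odds ratios for pairs. They describe counting error alone, as reads lacking molecular identifiers cannot be taken for independent molecules. No p-value was computed, because edgeR's test needs replicates. Genes with a mean of at least 1 CPM were measured. Named genes were the 8 members, CYP4F11, 9 genes fixed by role and up to 4 further genes per list with the largest ratios whose intervals excluded 0. With 2 libraries no gene was named for likeness of pattern. Other named genes were chosen after their values were seen. GC correction was a lowess fit (span 0.3). Alternatives were total counts, DESeq2 1.42.0 size factors, upper-quartile sizes, 2 added to each count, other filters and folds, and GC correction. Calculations were tested on simulated data, in Python 3.11.15 with scipy 1.17.1 and statsmodels 0.14.6. Protein sequences were not used here. Shared 50-base words were screened for the 8 members alone.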

Additional observations from a re-analysis of the deposited data

How the results depend on the processing

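The signs of the 8 genes' log2 ratios held under all alternatives run: TXNIP went from -0.52 to -0.47, MLXIP from -0.53 to -0.43, ARRDC3 from 0.23 to 0.36 and CYP4F11 from -1.40 to -1.34. ARRDC2 moved to 0.24 with the GC correction. All alternatives were also tabulated for 51 named genes outside the 8, and 12 of them moved beyond their counting intervals with that correction without changing sign. KRT18 changed sign there, from -0.08 to 0.00069, and so did MAX, from -0.0002 to 0.05 within its interval. Among named genes outside the 51, SLC2A13, NDFIP1, DDIT4 and ELOVL6 changed sign with it, and PRKAA2 moved beyond its interval. The cause was not tested. The medians of the 8 lists kept their sign. Counts of called genes followed the filter and the fold: 98 higher and 175 lower became 345 and 476 with no filter, 5 and 19 at a mean of at least 5 CPM (which MLXIPL does not reach) and 284 and 479 at 1.5-fold, since more or fewer genes were tested or the rule was laxer. No paired analysis was possible because each group has 1 library, and for the same reason no library could be left out. Depth limits MLXIPL most, at 58 and 39 counts.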

Other observations

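The 23 promoter windows with 2 CACGNG hexamers 5 bases apart belonged to 23 symbols, of which 20 were in the count table and 15 were measured. This list was added after the data were seen, and it was chosen by sequence and not by counts. TXNIP was among its lower genes. Of the 15 genes 9 were above 0 and 6 below. Their intervals lay above 0 for 5 and below 0 for 3, against 18.6% and 19.2% of all measured genes. The median was 0.07 against -0.005 for all measured genes. GFPT1, the rate-limiting enzyme of hexosamine synthesis, had 4431 counts in siControl and 4557 in siCYP4F11 and a log2 ratio of 0.35 (0.29 to 0.41), or 0.23 after the GC correction. STX12, an endosomal syntaxin, was at 0.39 (0.15 to 0.63) and HPF1, a partner of PARP1 in ADP-ribosylation, at 0.36 (0.16 to 0.56). MYL5, a myosin light chain with 192 and 103 counts, was the lowest of the 15 at -0.59 (-0.95 to -0.24), followed by TXNIP. After the GC correction this order was reversed, with TXNIP at -0.52 and MYL5 at -0.45. MYL5 and ATP5ME lie on opposite strands and run away from each other from the same match on chromosome 4, and ATP5ME was at 0.01 (-0.15 to 0.17). The median of the list and the ratio of TXNIP had opposite signs.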
